A study of Homo sapiens with 6 samples.

Results

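Cytosolic heat shock genes encode the chaperones that hold, refold or hand over unfolded proteins outside the endoplasmic reticulum, together with the transcription factor that induces them. The set comprised 10 genes, namely CRYAB, HSPB1, DNAJB1, HSPA1A, HSPA1B, HSPA8, HSPH1, HSP90AA1, BAG3 and HSF1, of 20046 genes named on the array. All 13 probes annotated with these symbols were taken, of 47231 probes in all, and none was found only under a former symbol. U251 cells, an established human glioblastoma line, were transduced with lentivirus made from pLKO1.5 vectors and RNA was taken 5 days later. One group carried a non-target control shRNA (shCON, 3 arrays) and the other a single shRNA against cyclophilin B (shCypB, 3 arrays), so that both groups had been through transduction and shRNA expression. The labels name no heat or drug treatment, and with 1 targeting shRNA its other effects and the loss of cyclophilin B cannot be told apart.

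In the unstressed cell the heat shock transcription factor HSF1 is held inactive by chaperones. When unfolded proteins occupy these chaperones, HSF1 forms trimers and binds heat shock elements, inverted repeats of GAA, in the promoters of chaperone genes. Small heat shock proteins (CRYAB, HSPB1) bind unfolding proteins without using ATP, J proteins (DNAJB1) deliver them to HSP70 (HSPA1A, HSPA1B, HSPA8), exchange factors (HSPH1, BAG3) make HSP70 release them, and HSP90 (HSP90AA1) completes the folding of kinases and receptors. Many tumour cells, glioma among them, hold high levels of these chaperones without heat. Cyclophilin B itself resides in the endoplasmic reticulum, whose chaperones are controlled by a separate response.

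Heat shock elements were looked for in the 250 bases before each annotated start. Binding of HSF1 to them was not measured. RefSeq promoters (GRCh38.p14) were used for 8 of the 10 members, with 11 starts between them. The 2-unit motif, GAANNTTC or TTCNNGAA (each reads the same on both strands), was present in 6 of these 11 promoters and in 11.6% of 35114 promoters searched over the same length. The 3-unit motif, GAANNTTCNNGAA or its other-strand form TTCNNGAANNTTC, which contains overlapping 2-unit matches, was present at HSPA8 and HSP90AA1 and in 0.441% of promoters. Of the 6 promoters with a match, the 5 printed here are those of the near-identical HSPA1 pair, of DNAJB1 and HSP90AA1, which were called lower at 1 or more probes, and of HSPA8, which was not called at either probe. Capitals mark the motif matches and each sequence ends at the base before the start.
DNAJB1 (GRCh38.p14 chr19:14518398-14518647, minus strand): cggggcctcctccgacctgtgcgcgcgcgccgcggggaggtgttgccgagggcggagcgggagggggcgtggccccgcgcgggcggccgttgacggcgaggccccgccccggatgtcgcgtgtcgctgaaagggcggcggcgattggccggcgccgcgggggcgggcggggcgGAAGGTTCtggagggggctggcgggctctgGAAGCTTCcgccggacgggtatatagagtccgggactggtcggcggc
HSPA1A (GRCh38.p14 chr6:31815293-31815542, plus strand): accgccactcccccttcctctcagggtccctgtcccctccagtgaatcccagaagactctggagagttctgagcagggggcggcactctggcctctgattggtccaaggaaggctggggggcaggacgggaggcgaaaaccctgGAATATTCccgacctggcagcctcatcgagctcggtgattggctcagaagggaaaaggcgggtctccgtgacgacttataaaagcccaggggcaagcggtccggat
HSPA1B (GRCh38.p14 chr6:31827488-31827737, plus strand): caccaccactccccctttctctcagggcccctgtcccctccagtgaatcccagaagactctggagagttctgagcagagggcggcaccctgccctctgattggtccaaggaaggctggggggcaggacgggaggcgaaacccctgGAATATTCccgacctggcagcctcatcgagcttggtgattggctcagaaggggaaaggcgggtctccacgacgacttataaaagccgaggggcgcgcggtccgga
HSPA8 (GRCh38.p14 chr11:123062137-123062386, minus strand): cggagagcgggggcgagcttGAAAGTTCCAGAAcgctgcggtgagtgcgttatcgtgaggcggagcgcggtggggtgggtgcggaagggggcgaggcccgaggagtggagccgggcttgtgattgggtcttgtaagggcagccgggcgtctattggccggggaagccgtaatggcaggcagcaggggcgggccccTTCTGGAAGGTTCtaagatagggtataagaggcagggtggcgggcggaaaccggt
HSP90AA1 (GRCh38.p14 chr14:102087045-102087294, minus strand): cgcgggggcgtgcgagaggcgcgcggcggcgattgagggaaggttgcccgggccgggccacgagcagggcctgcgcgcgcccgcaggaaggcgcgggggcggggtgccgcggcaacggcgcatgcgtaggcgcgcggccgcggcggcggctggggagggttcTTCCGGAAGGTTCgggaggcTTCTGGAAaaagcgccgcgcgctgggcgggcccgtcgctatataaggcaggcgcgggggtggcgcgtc

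In the DNAJB1 promoter 39 bases lay between the nearer of 2 matches and the start, and in HSPA8 42 bases lay between the nearest of 4 matches, in 2 overlapping pairs, and the start. The 2-unit match of HSPA1A lay 98 bases before the start and that of HSPA1B 97 bases before it. These 2 genes are neighbours on chromosome 6, and their promoters matched at 235 of 249 aligned bases (94.4%). In HSPB1 174 bases lay between the single match and the start. No match was found in this window at HSPH1 or BAG3, nor at the other listed starts of DNAJB1 and HSP90AA1. The promoters of CRYAB and HSF1 were not among those used, so whether they hold a match was not tested. CRYAB had no promoter entry. Starts on chromosome 8, which carries HSF1, were left out for the members but not for the background.

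Signals were background corrected, quantile normalized and expressed on a log2 scale, and each probe was tested with limma, with p-values adjusted by the Benjamini-Hochberg method over all 17608 tested probes (threshold 0.05). A probe counted as detected on an array at a detection p below 0.05, and was tested if detected on at least 3 of the 6 arrays. Errors beside log2 changes are standard errors of the limma fit, an error given with a mean signal is the SD over 3 arrays, and a negative change means a lower signal in shCypB. Between 16597 and 18700 probes were detected per array. PPIB, which encodes cyclophilin B, had log2 signals of 6.05, 5.68 and 5.35 in shCON and 4.58, 4.44 and 4.81 in shCypB. Its probe was undetected on every shCypB array, so that its fall was at least 1.45-fold (adjusted p = 0.0034, limma). All 6 markers of the glioma line, including VIM and NES, were detected on all 6 arrays. Of 11 markers of blood, endothelial, epithelial, neuronal and oligodendrocyte cells, 8 were detected on no array and 0 on all of them. The others were CD14 (3 shCON and 2 shCypB arrays), PECAM1 (2 shCypB arrays) and MBP (1 shCON array), CD14 and MBP each at a single probe. CD14 did not pass the test (-0.49 ± 0.36, adjusted p = 0.34, limma).

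Within the heat shock set, CRYAB and DNAJB1 were much lower after cyclophilin B knockdown, and HSPA1B, HSP90AA1 and HSPB1 were lower by less than 1.5-fold. Of 9 testable genes, 5 fell and 0 rose (background of genes called higher, 23.1%). HSPA8, HSPH1, BAG3 and HSF1 did not pass the test, and HSPA1A could not be tested because its probe was undetected on every array. As a share, 55.6% of the tested members were called lower, against 20.8% of all 10517 tested genes (each gene is represented by the brightest of its tested probes). The members were chosen with earlier results of these data known, so this comparison describes the set and does not test it. The 5 calls became 3 without shCON replicate 3, shCypB replicate 1 or shCypB replicate 2, and 2 when the arrays were scaled to the median of all probes. With no background correction, an offset of 50, the authors' processed intensities or the mean of a gene's probes they became 6, HSF1 being added. Under the main settings and the added requirement of a change of at least 1.5-fold, CRYAB and DNAJB1 were left, against a background of 12.2%. The median log2 change of the 9 genes was -0.41, and that of all tested genes was 0.03. Counted by probe, 6 of 12 were called lower, against 18.2% of all tested probes, and 0 higher, against 20.3%. Of the 13 probes, 11 were detected on all 6 arrays, among them 1 or more of each of the 9 genes, so none of these genes was tested through 1 group alone. Fewer cells that express a gene and less of its RNA per cell cannot be told apart in these bulk samples.

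**Figure D1:**
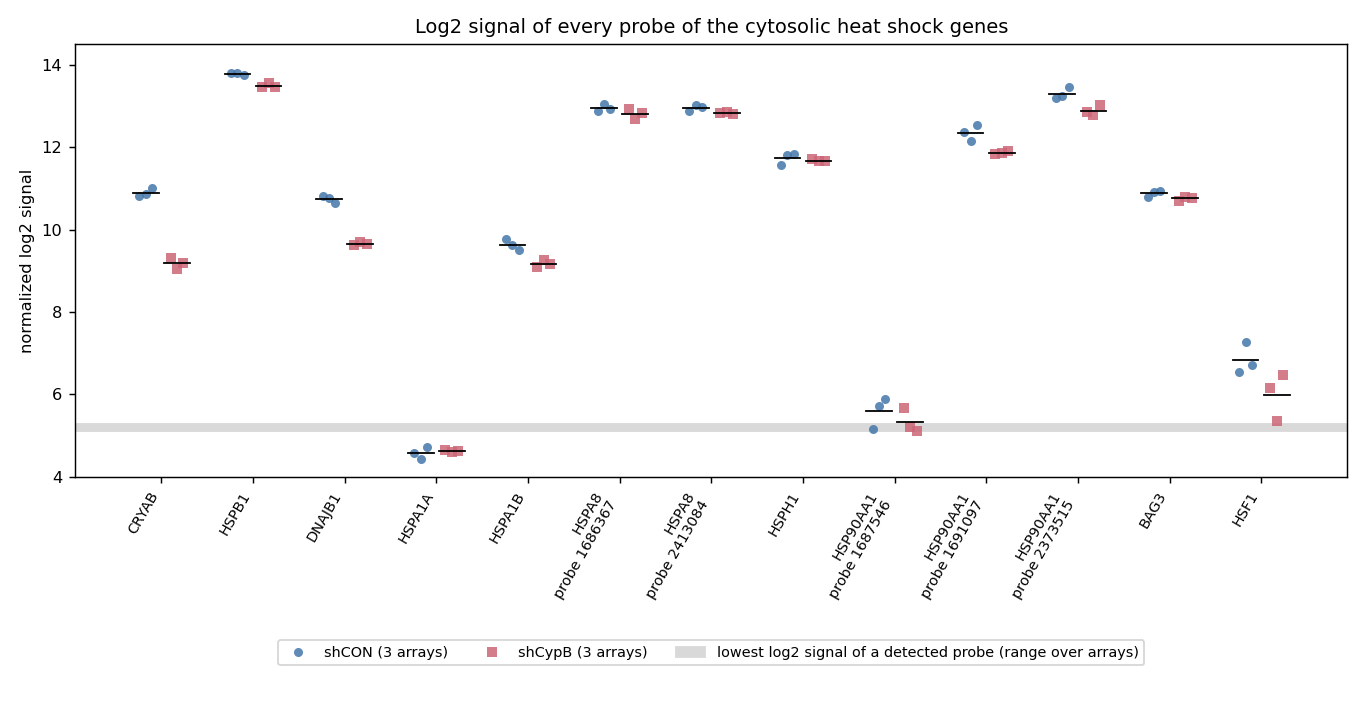
Normalized log2 signal (vertical axis) of all 13 probes of the 10 genes, with 1 point per array and black bars for the means of 3 shCON and 3 shCypB arrays. The groups lie furthest apart for CRYAB (means 10.89 and 9.18) and DNAJB1 (10.74 and 9.65), and the HSPA1A probe lies under the grey band of the lowest detected signals (5.12 to 5.29).

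CRYAB encodes alpha B-crystallin, a small heat shock protein that is also abundant in astrocytes and in gliomas. The shCON arrays read 10.82, 10.85 and 11.00 on the log2 scale, and the shCypB arrays 9.32, 9.04 and 9.18. Every shCypB array lay more than 1 log2 unit below every shCON array. The log2 change was -1.71 ± 0.11, a 3.27-fold fall (adjusted p = 7.0e-05, limma). The same separation was present in the signals as deposited, before any normalization, with 1562 to 2145 units in shCON and 595 to 793 in shCypB. Among the 6 markers of the glioma line, 3 were lower, namely GFAP (-1.84 ± 0.14), NES (-0.66 ± 0.10) and SOX9 (-0.45 ± 0.09), and 0 were higher. Of all tested genes, 20.8% were called lower and 23.1% higher. VIM (-0.23 ± 0.10), CD44 (0.22 ± 0.10) and S100A6 (0.03 ± 0.10) did not pass at their brightest probe, while the other tested probe was lower for VIM (-0.39 ± 0.09) and higher for CD44 (0.35 ± 0.10). The part of these markers in the CRYAB result was not tested. HSPB2, a small heat shock gene that neighbours CRYAB on chromosome 11, was undetected on all 6 arrays.

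HSPB1 encodes HSP27, the small heat shock protein found in most cell types. Its log2 signals were 13.80, 13.79 and 13.74 in shCON and 13.45, 13.56 and 13.46 in shCypB. The groups did not overlap, but the difference was small. The log2 change was -0.28 ± 0.09, a 1.22-fold fall (adjusted p = 0.039, limma). This call did not hold when any 1 of the 6 arrays was left out (adjusted p = 0.059 to 0.12), and the deposited signals of the groups overlapped (10590 to 17084 and 11161 to 12464 units).

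DNAJB1 encodes HSP40, the J protein that activates the ATPase of HSP70 and is among the most heat-inducible chaperone genes. It gave log2 signals of 10.82, 10.77 and 10.64 in shCON and 9.62, 9.69 and 9.64 in shCypB. The 3 shCypB arrays were nearly equal, and all lay below the shCON arrays. The log2 change was -1.09 ± 0.09, a 2.13-fold fall (adjusted p = 2.0e-04, limma). In the deposited signals, 1226 to 2021 units in shCON stood against 905 to 954 in shCypB.

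The HSP70 genes HSPA1A and HSPA1B encode the stress-inducible form of the chaperone and are nearly identical in sequence, so a probe for one may also read the other. For HSPA1B the log2 signals were 9.77, 9.62 and 9.50 in shCON and 9.08, 9.26 and 9.17 in shCypB. All shCypB values were below all shCON values, by a margin close to the spread within the groups. The log2 change was -0.46 ± 0.11, a 1.38-fold fall (adjusted p = 0.012, limma). The HSPA1A probe was undetected throughout, with deposited signals of 54.1 to 69.0 units and detection p-values of 0.42 to 0.89. From these 2 probes it cannot be said how much of the HSPA1B signal came from HSPA1A transcripts.

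HSPA8 encodes HSC70, the constitutive HSP70 of the cytosol, and had a pair of probes listed against different transcripts. Probe ILMN_2413084 gave 12.88, 13.02 and 12.97 in shCON and 12.82, 12.84 and 12.81 in shCypB, and probe ILMN_1686367 gave 12.87, 13.04 and 12.93 in shCON and 12.92, 12.67 and 12.83 in shCypB. The groups were narrowly separate at the first probe and overlapped at the second. Their log2 changes were -0.13 ± 0.09 (adjusted p = 0.28, limma) and -0.14 ± 0.11 (adjusted p = 0.33, limma). The inducible HSPA1B and the constitutive HSPA8 thus stood on different sides of the threshold, and the difference between their changes was not tested.

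The exchange factors of HSP70 did not pass the test. HSPH1, the HSP110 chaperone, gave log2 signals of 11.57, 11.80 and 11.84 in shCON and 11.70, 11.65 and 11.66 in shCypB, a change of -0.06 ± 0.10 (adjusted p = 0.68, limma). BAG3, which links HSP70 to small heat shock proteins and to selective autophagy, gave 10.80, 10.90 and 10.93 in shCON and 10.70, 10.80 and 10.77 in shCypB, a change of -0.12 ± 0.09 (adjusted p = 0.36, limma). The HSPH1 groups overlapped, and those of BAG3 were separate only beyond the second decimal.

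HSP90AA1 encodes the inducible cytosolic HSP90 and had 3 probes. The probe with the highest signal, ILMN_2373515, gave 13.18, 13.25 and 13.45 in shCON and 12.86, 12.77 and 13.01 in shCypB. A further bright probe, ILMN_1691097, gave 12.36, 12.15 and 12.53 in shCON and 11.82, 11.85 and 11.91 in shCypB. At both, every shCypB array lay below every shCON array. The changes were -0.41 ± 0.11 (adjusted p = 0.024, limma) and -0.49 ± 0.12 (adjusted p = 0.014, limma), or falls of 1.33-fold and 1.40-fold. The probe ILMN_1687546, listed against the same transcript as ILMN_1691097, was close to background, was detected on 2 arrays of each group and had a change of -0.25 ± 0.22 (adjusted p = 0.40, limma). The call at ILMN_2373515 was lost without shCON replicate 3, shCypB replicate 1 or shCypB replicate 2 (adjusted p = 0.068, 0.075 and 0.076), whereas that at ILMN_1691097 held without any single array.

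HSF1, the transcription factor at the head of the response, gave log2 signals of 6.54, 7.28 and 6.71 in shCON and 6.15, 5.36 and 6.47 in shCypB. The groups did not overlap, but the lowest shCON array stood only just above the highest shCypB array. The change was -0.85 ± 0.30 (adjusted p = 0.061, limma), and its SE was the widest among the 12 tested probes of the set. The probe was dim, with deposited signals of 97.6 to 224 units that overlapped between the groups, although it was detected on all 6 arrays. The size of its change varied between settings, from -0.52 with no background correction to -1.07 without shCypB replicate 3, and was -0.53 without shCypB replicate 2 (adjusted p = 0.14, limma). It passed under 5 of 14 alternatives, which were no background correction, an offset of 50, the authors' processed intensities, the mean of a gene's probes and the omission of shCypB replicate 3 (adjusted p = 0.015, 0.016, 0.010, 0.047 and 0.036, limma).

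**Figure D2:**
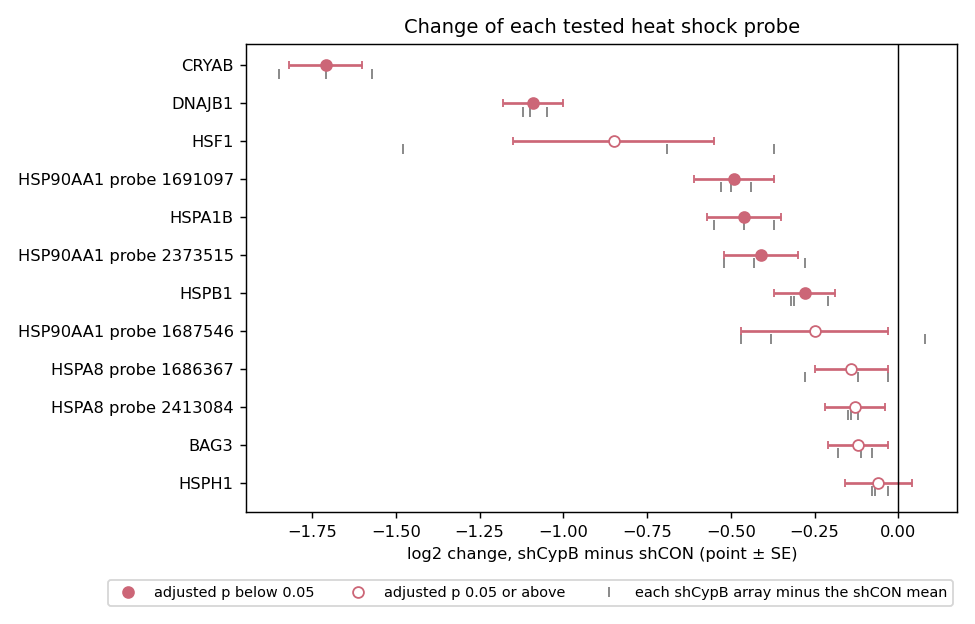
Log2 change of the 12 tested probes (horizontal axis, shCypB minus shCON, point ± SE), with grey ticks for each shCypB array minus the shCON mean. CRYAB (-1.71) and DNAJB1 (-1.09) stand apart from the called changes of HSP90AA1, HSPA1B and HSPB1 (-0.49 to -0.28), and the 3 HSF1 ticks are widely spread.

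Because the members were chosen with earlier results of these data known, the shares given next describe the set and do not test it. Across the tested members every log2 change was negative, from -1.71 for CRYAB to -0.06 for HSPH1, and 47.5% of all tested genes had a negative change. Every shCypB array was below every shCON array for 8 of the 9 genes (88.9%), the exception being HSPH1, against 26.8% of all tested genes. Several of these gaps were small, and in the signals as deposited the groups were separate at 3 of the 12 tested probes, those of CRYAB and DNAJB1 and the HSP90AA1 probe ILMN_1691097 (all with shCypB lower, against 8.55% of all tested probes). Scaling the arrays to the median of all 47231 probes in place of quantile normalization moved the median change of all tested probes from 0.02 to 0.22. Under that scaling 3779 probes were called higher and 917 lower, against 3570 and 3205 with quantile normalization. CRYAB (-1.42, adjusted p = 1.9e-07) and DNAJB1 (-0.80, adjusted p = 0.0063) were still called by limma, and the calls of HSPB1, HSPA1B and HSP90AA1 were lost (adjusted p = 0.53 to 0.69). The changes behind these lost calls were -0.23 to -0.15, each with an SE of 0.24, against SEs of 0.09 to 0.12 with quantile normalization. Relative to the shifted median, the changes of HSPB1, HSPA1B and the brighter HSP90AA1 probe were -0.38, -0.39 and -0.42, and that of CRYAB was -1.64. The direction of HSPA8, HSPH1 and BAG3 flipped under this scaling (0.08 to 0.18), and relative to the shifted median it did not (-0.14 to -0.04).

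**Figure D3:**
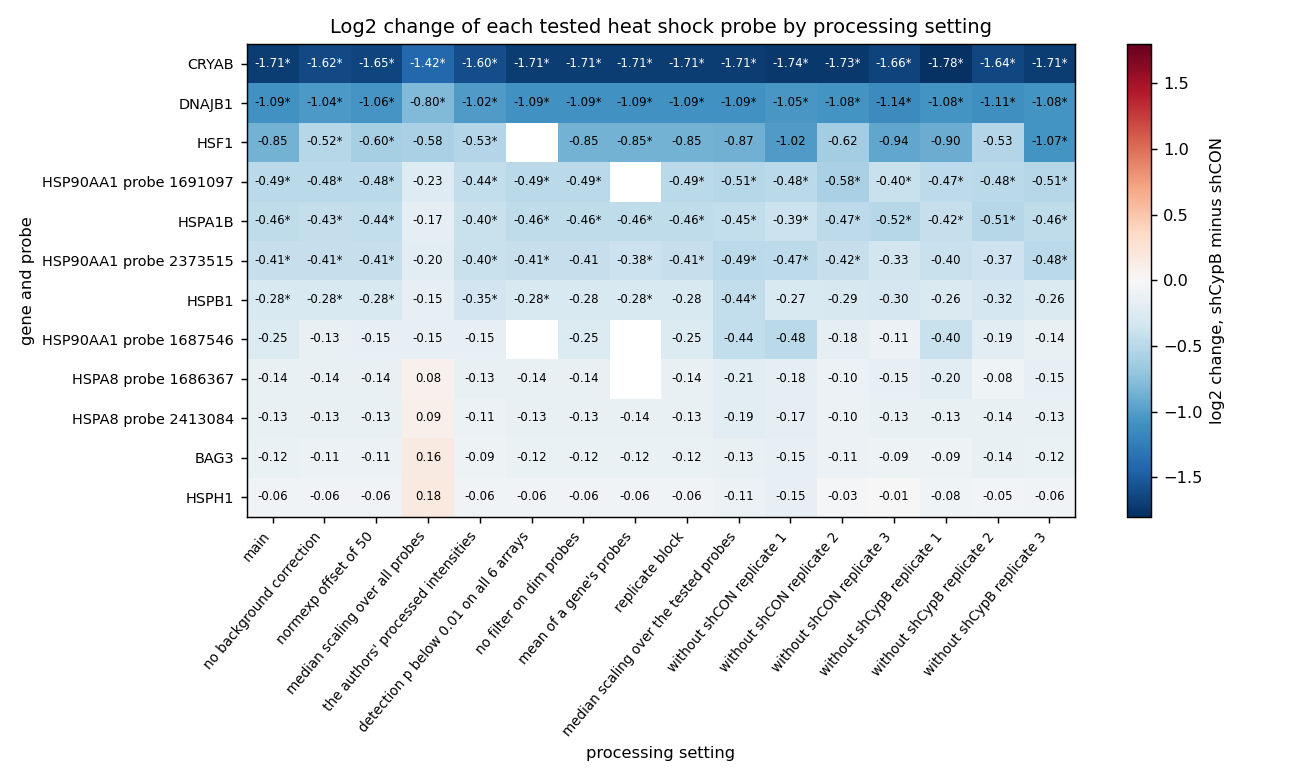
Log2 change (colour and number) of the 12 tested probes (rows) under the main and 15 alternative processing settings (columns), with an asterisk for an adjusted p below 0.05 and blanks where a probe was not tested or was averaged into its gene. The rows of CRYAB and DNAJB1 carry an asterisk in every column, and HSPB1 loses it under 9 of 15 alternatives.

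Partners and relatives of these chaperones were read from lists of 74 genes, without a common direction. Leaving aside a comparison list of 8 organelle chaperones, 51 of 66 listed genes were tested, mitochondrial HSPD1 and HSPE1 and the endoplasmic reticulum chaperone SERPINH1 among them. Of the 51, 6 were higher, 6 were lower and 39 did not pass (11.8% each way, against 23.1% higher and 20.8% lower among all tested genes). Their median log2 change was 0.07. Beside DNAJB1, 0 of 7 further cytosolic J protein genes fell and 2 rose (0% and 28.6%, against 20.8% and 23.1% of all tested genes). These were DNAJB6, a suppressor of protein aggregation (0.66 ± 0.09, adjusted p = 0.0012, limma), and DNAJC7, which also binds HSP90 (0.42 ± 0.12, adjusted p = 0.027, limma). The DNAJC7 call was lost without shCON replicate 2 or 3 or shCypB replicate 1 or 3 (adjusted p = 0.061, 0.075, 0.066 and 0.092). A second DNAJB6 probe, listed against a different transcript, had a change of 0.12 ± 0.12 (adjusted p = 0.48, limma). DNAJA1, the uncalled gene of that list with the smallest p, stood at 0.15 ± 0.12 (adjusted p = 0.38, limma).

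**Figure D4:**
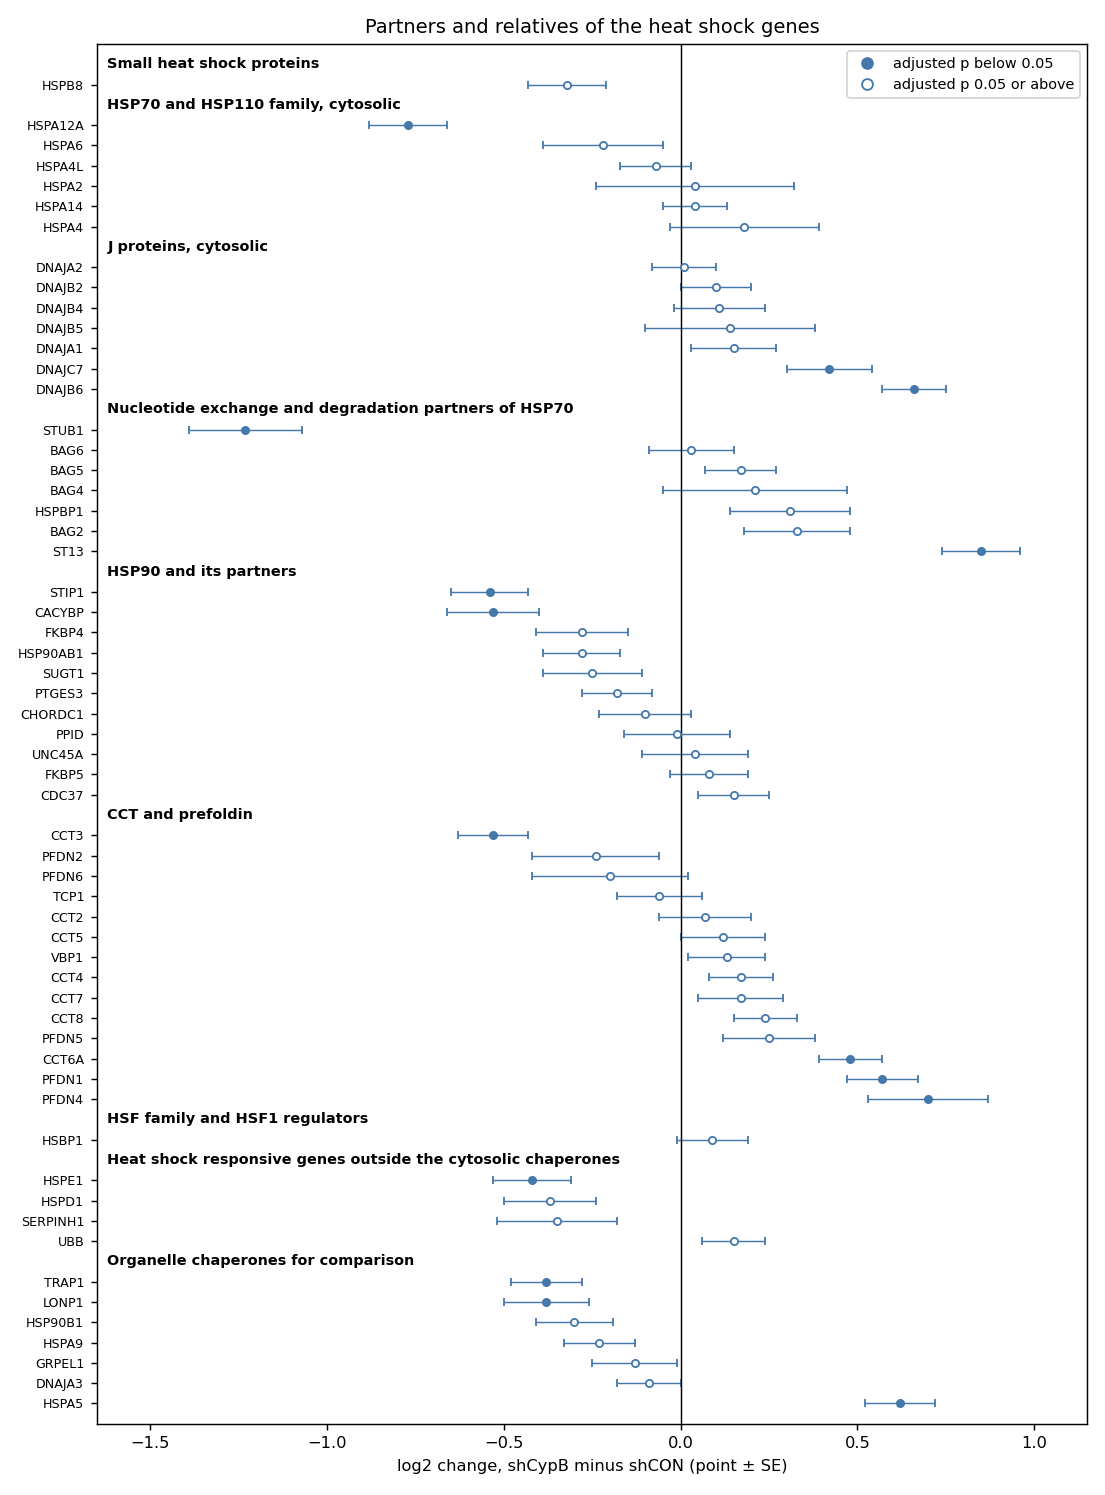
Log2 change of 58 tested partner and relative genes (horizontal axis, shCypB minus shCON, point ± SE), grouped by list, with filled points for an adjusted p below 0.05. STUB1 (-1.23) lies furthest to the left and ST13 (0.85) furthest to the right, and filled points lie on both sides of 0.

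Among partners of HSP70, STUB1 and ST13 moved in opposite directions. STUB1 encodes CHIP, the ubiquitin ligase that marks chaperone-bound proteins for the proteasome. At its brighter probe the log2 mean was 9.76 ± 0.24 in shCON and 8.53 ± 0.20 in shCypB, a 2.34-fold fall (-1.23 ± 0.16, adjusted p = 9.2e-04, limma), and its other probe fell by 0.99 ± 0.11. ST13 encodes HIP, which stabilises the ADP-bound state of HSP70, and rose from 8.98 ± 0.03 to 9.84 ± 0.15 (0.85 ± 0.11, adjusted p = 8.4e-04, limma). The other 5 tested genes of that list, 4 BAG family members and HSPBP1, did not pass, with BAG2 at 0.33 ± 0.15. Of its 7 tested genes, 14.3% were thus called each way, against 23.1% higher and 20.8% lower among all tested genes. Of 6 further tested HSP70 and HSP110 genes, 1 was called lower (16.7%, against 20.8% of all tested genes) and 0 higher (against 23.1%). This was HSPA12A, a distant HSP70 relative, which fell by 0.77 ± 0.11 (adjusted p = 0.0012, limma). HSPA6, a strictly heat-inducible HSP70 gene, had a dim probe with a change of -0.22 ± 0.17 (adjusted p = 0.35, limma).

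Of 11 tested genes of HSP90 and its partners, 2 were lower (18.2%, near the 20.8% of all tested genes) and 0 were higher, and 72.7% had a negative change, against 47.5% of all. STIP1 encodes HOP, the adaptor that joins HSP70 to HSP90, and fell by 0.54 ± 0.11 (adjusted p = 0.0078, limma). CACYBP, a calcyclin-binding protein, fell by 0.53 ± 0.13 (adjusted p = 0.017, limma), although its dim second probe stood at 0.05 ± 0.19 and the call was lost without shCypB replicate 1 (adjusted p = 0.060). HSP90AB1, the constitutive HSP90 gene, had a change of -0.28 ± 0.11 (adjusted p = 0.085, limma), and PPID, the cytosolic cyclophilin that docks on HSP90, one of -0.01 ± 0.15 (adjusted p = 0.96, limma). Of the 6 genes called lower among those 51, HSPE1 included, only STUB1 was still called lower under median scaling of all probes.

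The chaperonin and prefoldin genes, which fold actin and tubulin, gave 3 higher, 1 lower and 10 not passed of 14. The shares of 21.4% higher and 7.14% lower stood against 23.1% and 20.8% of all tested genes. PFDN4 (0.70 ± 0.17), PFDN1 (0.57 ± 0.10) and CCT6A (0.48 ± 0.09) were higher, and CCT3 was lower (-0.53 ± 0.10), with adjusted p of 0.016, 0.0033, 0.0048 and 0.0044 by limma. A second CCT6A probe stood at -0.01 ± 0.13, so the rise of that gene rests on 1 of its 2 probes, whereas the other CCT3 probe fell too (-0.42 ± 0.11, adjusted p = 0.020, limma). PFDN4 was not called without shCON replicate 1 or shCypB replicate 2 (adjusted p = 0.051 and 0.053). CCT8, uncalled, stood at 0.24 ± 0.09 (adjusted p = 0.079, limma). TCP1 did not pass at its brightest probe (-0.06 ± 0.12). A dimmer TCP1 probe was called lower (-0.45 ± 0.15, adjusted p = 0.047, limma), while another stood at -0.03 ± 0.11. Only 1 of 7 further small heat shock genes could be tested, HSPB8, a partner of BAG3, at -0.32 ± 0.11 (adjusted p = 0.051, limma). HSBP1, a small protein that binds HSF1, had a change of 0.09 ± 0.10 (adjusted p = 0.50, limma), HSF4 was undetected on all arrays and HSF2 was not analysed here.

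Chaperones outside the cytosol were set beside the members. The mitochondrial pair HSPD1 and HSPE1, which HSF1 also induces, encode HSP60 and its lid HSP10. HSPE1 fell at both of its probes (-0.42 ± 0.11 at the brighter and -0.85 ± 0.23 at the other, adjusted p = 0.018 and 0.023, limma). The call at the brighter probe was lost without shCON replicate 1, shCypB replicate 1 or shCypB replicate 3 (adjusted p = 0.059, 0.064 and 0.056). HSPD1 just missed the threshold at its brightest probe (-0.37 ± 0.13, adjusted p = 0.051, limma) and fell at 2 dimmer ones (-0.56 ± 0.13 and -0.42 ± 0.13). In the endoplasmic reticulum, HSPA5, the HSP70 gene known as BiP, rose from a log2 signal of 9.17 ± 0.08 to 9.79 ± 0.11 (0.62 ± 0.10, adjusted p = 0.0028, limma). Its direction was thus opposite to that of the inducible cytosolic HSPA1B, while HSP90B1, the HSP90 gene of the same compartment, did not pass (-0.30 ± 0.11, adjusted p = 0.066, limma). In mitochondria TRAP1, an HSP90 relative, and the protease gene LONP1 fell (-0.38 ± 0.10 and -0.38 ± 0.12, adjusted p = 0.019 and 0.037, limma). TRAP1 was not called without shCON replicate 3, shCypB replicate 1 or shCypB replicate 2 (adjusted p = 0.054, 0.061 and 0.065), and LONP1 was not called when any array but shCON replicate 1 was left out (adjusted p = 0.076 to 0.093). Of the 15 genes called on these lists, DNAJB6, ST13, STUB1, PFDN1 and HSPA5 were called under every alternative setting, as were 2 of the 5 called members, CRYAB and DNAJB1.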

How the data were processed

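The deposited table gives the bead signal intensity of each probe on 6 Illumina arrays, on a linear scale and, per the file headers, without normalization, with a detection p-value beside each, which the authors deposited in steps of 1 in 770. The authors' processed intensity table (Partek is named, without role or version, in the submitters' processing notes; how it was normalized is not stated) kept the probe order of each array's signals (Spearman rho 0.999 or higher) and served as an alternative. Signals were corrected with limma 3.58.1 (R 4.3.3) by normexp, with an offset of 16 and control-bead parameters derived from detection p-values, quantile normalized and log2 transformed. The fit held group alone, with 4 residual degrees of freedom and a prior of 3.51. It was also run on simulated independent normal values, which cannot test whether these data meet its assumptions. Precision is limited by having 3 arrays a group, which the labels call biological replicates. For a group undetected on all its arrays, a fold bound used the lowest detected signals. Symbols were updated by Entrez identifier to RefSeq. An exact permutation test of 3 against 3 cannot go below p = 0.1, so none was run. The 10 members and the partner lists were chosen with earlier results of these data known. Named were all members, called partners, all glioma line markers and up to 2 uncalled partners of each list with the smallest p. Besides these, PPID, TCP1, CD14, PECAM1, MBP and probes set beside a main probe were chosen after their values were seen. HSPB2, HSF4 and HSF2 were named too, although they were not tested.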

Additional observations from a re-analysis of the deposited data

How the results depend on the processing

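CRYAB and DNAJB1 were called lower under all 15 alternatives, with log2 changes of -1.78 to -1.42 and -1.14 to -0.80. The number of members called lower was 5 with the main settings. It was 2 under median scaling over all probes and 3 with no filter on dim probes. When 1 array was left out it lay between 3 and 5 (3 without shCON replicate 3, shCypB replicate 1 or shCypB replicate 2). With no background correction, an offset of 50, the authors' processed intensities or the mean of a gene's probes it was 6, HSF1 being added. Without shCypB replicate 3 it was 5, with HSF1 called and HSPB1 lost. Median scaling over all probes left 642 genes and 917 probes called lower, and 1 of the 51 tested partner genes, STUB1. Log2 changes that turned positive under that scaling, none of them called, were those of BAG3 (0.16), HSPH1 (0.18) and the HSPA8 probes (0.08 and 0.09). Median scaling over the tested probes, chosen after seeing the data, gave 5 members lower. The replicate numbers are not said to mark a shared batch. Correlations of deviations from the group means between same-numbered arrays were -0.098, -0.11 and 0.0095. Such values cannot show whether same-numbered arrays were prepared together. With a replicate block 4 members were called lower, HSPB1 being lost (adjusted p = 0.096). The slide block was not run, as the files name no slide. Dim probes such as those of HSF1 and PPIB are limited by their signal over background.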
